A study of Mus musculus with 15 samples.

Results

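iNKT cells from inguinal lymph nodes (iLN) were compared with iNKT cells from mesenteric lymph nodes (mLN). The comparison rests on 7 of the 15 RNAseq samples analysed, chosen by their tissue labels, with 3 from iLN (replicates 2, 3 and 4) and 4 from mLN (replicates 1 to 4), and the remaining 8 samples came from spleen and thymus. All 15 samples were cells sorted as TCRβ+ CD1d-tet-PBS57+ and negative for B220, CD11b, CD11c and CD8 from untreated WT C57BL/6 mice aged 6 weeks, so that no transgene or treatment separates the groups. Replicates 3 and 4 form batch 1 and replicates 1 and 2 form batch 2, which leaves 2 iLN and 2 mLN samples in batch 1 and 1 iLN and 2 mLN samples in batch 2. The p-values of the gene tests rest on the spread between replicates over all 15 samples, spleen and thymus included, with batch fitted. The paper describes the replicates as biological, but nothing in the labels tells if cells of 1 mouse or of several were used per replicate. This spread may thus differ from that between single mice. Both kinds of node went through the same enzyme digestion, so no difference in preparation is described between the groups.

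iNKT cells carry an invariant TCR α-chain and recognise lipids on CD1d. They are divided into NKT1 cells (with T-bet, encoded by Tbx21), NKT2 cells (with high PLZF, encoded by Zbtb16, and GATA3) and NKT17 cells, which can make IL-17. iLN drain the skin of the hindquarters and mLN drain the gut, where dendritic cells make retinoic acid, a vitamin A product that induces the gut-homing receptors CCR9 and α4β7 integrin in lymphocytes. NKT17 cells are known to be frequent in peripheral LNs of mice, and skin-homing lymphocytes carry receptors such as CCR4, CCR8 and CCR10.

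The 7 LN samples held between 4080550 and 7914302 counts, and values are given below in CPM (counts scaled with TMM to a library size of 1000000), in the order of replicates 2, 3 and 4 for iLN and 1 to 4 for mLN. Calls needed a fold change over 1.5 and an adjusted p (Benjamini-Hochberg) below 0.01 in edgeR's quasi-likelihood test, and a fold change is iLN over mLN unless stated. T cell and iNKT transcripts were present in all 7 samples. Cd3e was at 1321, 1233 and 1378 CPM in iLN and 1397, 1509, 1268 and 1212 CPM in mLN, and Trav11 with Trav11d, the Vα14 genes, made up 78.0% to 87.9% of the Trav counts. That is a share of gene counts and not of cells, whereas the paper took its TRAV usage from productive TCR sequences found in the reads. Mitochondrial rRNA took 10.51% to 21.3% of the counts and nuclear genes that overlap rRNA repeats took 2.88% to 15.1%, with iLN replicate 3 at the lowest value of the first and the highest of the second.

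Of 13600 genes tested, 64 (0.471%) were called, of which 43 (0.316%) were higher in iLN and 21 (0.154%) were higher in mLN. In all 64 called genes the values of the 3 iLN and the 4 mLN samples did not overlap. A single direction in replicates 2, 3 and 4 follows from that and is no further result. Groups that did not overlap were far more common than calls, with 607 genes (4.46%) higher and 546 genes (4.01%) lower in iLN. At an adjusted p under 0.05 with no limit on the fold, 183 genes (1.35%) passed. Within batch 1 alone 23 genes were called. All 64 genes kept the direction of the full fit in batch 1 and in batch 2, where iLN had 1 sample. Groups that do not overlap nearly fix this in advance. DESeq2, the tool of the study's methods, was given all 48795 genes with no prior filter on low counts and called 303 (177 higher and 126 lower in iLN). Without a filter on low counts, edgeR called 279. On the 7 LN samples alone, with the filter, edgeR called 20, of which 16 were among the 64. Without mLN replicate 4 the count fell to 44, with 25 genes higher in iLN, and 34 of the 64 genes stayed called without each LN sample in turn. In bulk samples such as these, fewer cells that express a gene and less RNA of that gene per cell cannot be told apart.

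**Figure D1:**
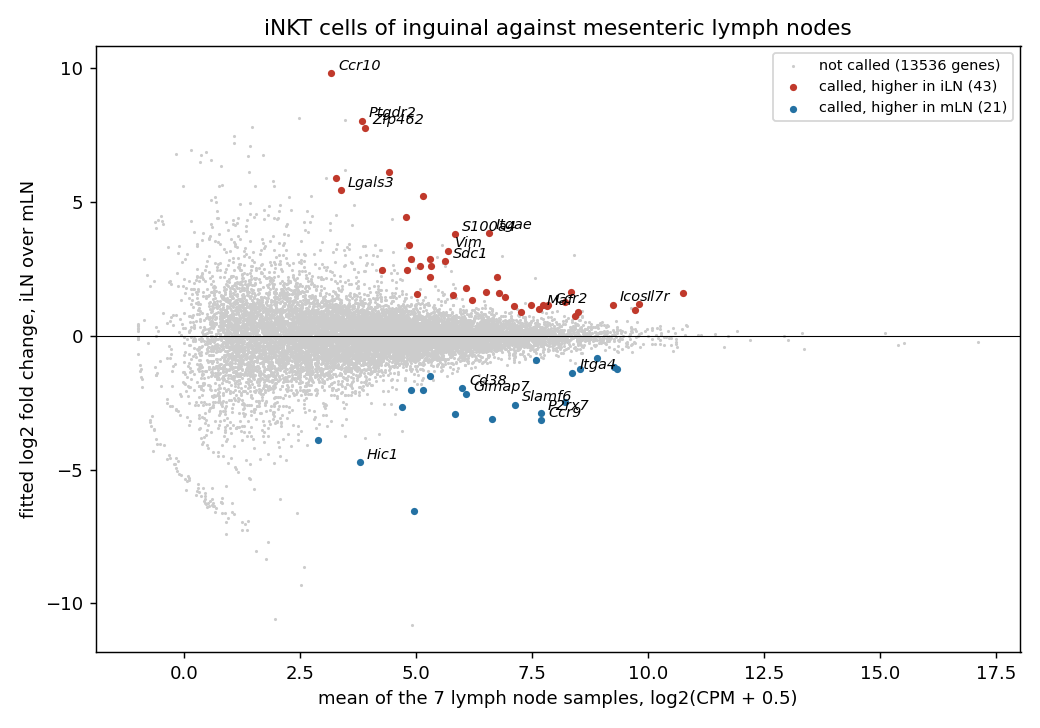
Fitted log2 fold change of iLN over mLN (vertical) against the mean level of the 7 LN samples as log2(CPM + 0.5) (horizontal), with 1 point per gene tested. The 43 genes called higher in iLN are red, the 21 called higher in mLN are blue and the others grey, and named examples run from Ccr10 at 9.80, a fitted value that is no bound since mLN had no count, to Hic1 at −4.73.

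Genes of gut homing and of the response to retinoic acid were divided between the 2 nodes. Of 17 genes listed, 11 could be tested, and their median log2 fold change was −1.37 beside −0.0005 over all genes tested. Of the 11, 4 were called higher in mLN (Ccr9, Itga4, P2rx7 and Hic1) and 2 higher in iLN (Itgae and Rara). Over all genes tested, 0.154% were called higher in mLN and 0.316% higher in iLN. The same 6 genes of the list passed at an adjusted p under 0.05. Of all genes tested, 0.493% did so with mLN higher and 0.853% with iLN higher. Ccr9 (ENSMUSG00000029530, chromosome 9, 123678439 to 123784330 of GRCm38) encodes the receptor for CCL25, the chemokine of the small intestine and thymus. It was at 409.9, 434, 282 and 218 CPM in mLN and 46.5, 26.8 and 28.6 CPM in iLN. Every mLN sample was above every iLN sample (8.89-fold higher in mLN, log2 fold change −3.15, SE 0.24, adjusted p = 1.32e-06). Spleen had 178 ± 36.3 CPM (SD, n = 4) and thymus 41.2 ± 24.96 CPM (SD, n = 4), so that the mean was highest in mLN. Ccr9 was called under all alternatives tried. The opposite strand of its span holds Lztfl1, with means of 24.9 CPM in iLN and 46.5 CPM in mLN.

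Itga4, which encodes the α4 chain of the gut-homing integrin α4β7, was at 653, 445, 407 and 328 CPM in mLN and 183, 106 and 184 CPM in iLN. The lowest mLN sample was above the highest iLN sample (log2 fold change −1.37, SE 0.23, adjusted p = 0.00372), although the call was lost without any of 5 of the 7 LN samples (adjusted p up to 0.0396). It overlaps Cerkl on the opposite strand, with means of 19.2 CPM in iLN and 47 CPM in mLN. Itgb7, which encodes the β7 partner of both α4 and αE, was at 168, 170.1 and 167 CPM in iLN and 69.1, 83.4, 176 and 116 CPM in mLN. These groups overlapped and Itgb7 was not called (log2 fold change 0.59, SE 0.24, adjusted p = 0.277). Hic1, a transcriptional repressor induced by retinoic acid in T cells, was at 27.4, 15.8, 22.7 and 23.5 CPM in mLN and 0.179, 1.896 and 1.37 CPM in iLN. At most 1.90 CPM was reached in iLN (26.5-fold higher in mLN, log2 fold change −4.73, SE 0.70, adjusted p = 0.00098).

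P2rx7 (ENSMUSG00000029468, chromosome 5, 122643911 to 122691432) encodes the channel through which extracellular ATP, or NAD by way of ART2 enzymes, kills T cells. It was at 335, 305, 318 and 335 CPM in mLN and 14.7, 43.4 and 83.98 CPM in iLN. The mLN samples were close to each other and to spleen (309.7 ± 46.7 CPM, SD, n = 4), whereas the iLN samples ranged widely and all lay far below them (7.45-fold higher in mLN, log2 fold change −2.90, SE 0.37, adjusted p = 0.000203). Art2b, which encodes an ART2 enzyme, was at 615, 546, 357 and 330.4 CPM in mLN and 43.4, 72.6 and 107 CPM in iLN. No iLN sample reached the mLN range (log2 fold change −2.46, SE 0.32, adjusted p = 0.000285). Its neighbour Art2a-ps, which is near-identical in sequence and can share its reads, was at 166, 200.2, 123 and 148 CPM in mLN and 15.97, 21.9 and 13.7 CPM in iLN. The values of all mLN samples were above 120 CPM and those of all iLN samples below 22 CPM (log2 fold change −3.09, SE 0.31, adjusted p = 2.71e-05). Cd38, which encodes an enzyme that breaks down NAD, was also called higher in mLN (log2 fold change −1.96, adjusted p = 0.00412, up to 0.0132 with 1 sample left out). NADase was part of the digestion of both nodes.

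Itgae (ENSMUSG00000005947, chromosome 11, 73090583 to 73147446) encodes the αE chain of CD103, which binds E-cadherin on epithelial cells. It was at 164, 207 and 229 CPM in iLN and 4.93, 10.9, 31.6 and 8.48 CPM in mLN. Even the highest mLN sample, replicate 3, was over 5-fold below the lowest iLN sample (14.4-fold higher in iLN, log2 fold change 3.84, SE 0.45, adjusted p = 0.000108). Thymus had 262 ± 38.8 CPM (SD, n = 4) and spleen 4.44 ± 2.77 CPM (SD, n = 4), so that iLN lay near thymus and mLN near spleen. Haspin, on the opposite strand within Itgae, had means of 15 CPM in iLN and 6.09 CPM in mLN. Rara, which encodes a retinoic acid receptor, was at 74.5, 169.9 and 97.3 CPM in iLN and 37.7, 32.2, 47.6 and 52.8 CPM in mLN. iLN replicate 3 was far above the other samples (log2 fold change 1.34, SE 0.25, adjusted p = 0.00745), and without it the call was lost, as it was without any mLN sample (adjusted p up to 0.0459). Among the genes of this list that were not called, Rarg was at 24.04, 56.1 and 46.01 CPM in iLN and 8.17, 5.804, 28.5 and 17.3 CPM in mLN (adjusted p = 0.0551) and Tgm2 at 6.48, 0.5804, 4.99 and 2.697 CPM in mLN and 0, 0 and 0.171 CPM in iLN (adjusted p = 0.11). Tgm2 was thus at or under 1 count in each iLN sample. The median of the list depended on the filter: with at least 10 counts in every LN sample 7 genes remained and their median was 0.60, and within batch 2 alone it was −0.02.

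The chemokine receptors with the largest changes pointed to different nodes. Of 24 receptors tested, Ccr10 and Ccr2 were called higher in iLN (beside 0.316% of all genes tested). In the other direction 2 were called higher in mLN, Ccr9 among them (beside 0.154%). The median log2 fold change of the 24 was 0.43. Ccr10 (ENSMUSG00000044052, chromosome 11, 101172997 to 101175443) encodes the receptor for CCL27 of the epidermis. It had 66, 157 and 27 counts in the iLN samples, or 11.8, 42.5 and 4.62 CPM in iLN and 0, 0, 0 and 0 CPM in mLN. No count of Ccr10 was found in any mLN sample, so that iLN was at least 136-fold higher when mLN is set to 3 counts over the group (adjusted p = 0.00511). iLN replicate 3 held most of these counts, and the call was lost without it or without any of the 4 mLN samples (adjusted p up to 0.0261). Ccr10 lies on the opposite strand within the span of Cntnap1, which was also called (27.1, 26.8 and 8.72 CPM in iLN and 0.778, 0.5804, 0 and 0 CPM in mLN). Whether strand was used in counting is not stated, so reads of these 2 genes cannot be told apart. The thymus had 13.9 ± 1.73 CPM of Cntnap1 and 2.31 ± 1.63 CPM of Ccr10 (SD, n = 4 for both).

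Ptgdr2 (ENSMUSG00000034117, chromosome 19, 10937160 to 10942511) encodes CRTH2, a receptor for prostaglandin D2 that attracts type 2 lymphocytes. It was at 19.02, 23.03 and 53.02 CPM in iLN and 0, 0, 0.416 and 0 CPM in mLN. The iLN samples held 501 counts together and the mLN samples 2, all in replicate 3, a ratio of 408 at equal depth with an exact 95% interval of 112 to 3380 that covers counting error only (adjusted p = 0.000608). The opposite-strand neighbour that overlaps it, Ccdc86, had means of 36.7 CPM in iLN and 12.3 CPM in mLN. Ccr2, the receptor for CCL2, was at 337, 271 and 342 CPM in iLN and 175, 186, 115 and 147 CPM in mLN. All iLN samples were above 270 CPM and all mLN samples below 187 CPM (2.14-fold higher in iLN, log2 fold change 1.10, SE 0.16, adjusted p = 0.00072).

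Of the 9 genes listed for skin homing 8 were tested, and all 8 had a log2 fold change above 0, beside 50.0% of all genes tested. Their median was 1.16, which is the same with Ccr10 at its bound. Ccr4 among them turned below 0 under 3 alternatives. Only Ccr10 was called, beside 0.316% of all genes tested called higher in iLN. Ccr8, a receptor for CCL1 and CCL8 found on skin T cells, was at 55.8, 65.3 and 10.8 CPM in iLN and 15.9, 6.24, 12.5 and 5.59 CPM in mLN. iLN replicate 4 fell within the mLN range and the gene was not called (log2 fold change 2.10, adjusted p = 0.0576). Gcnt1, which encodes an enzyme that helps to build selectin ligands, was at 36.2, 39.3 and 28.9 CPM in iLN and 12.1, 16.1, 10.2 and 10.02 CPM in mLN. Its groups did not overlap but the test did not pass (log2 fold change 1.60, adjusted p = 0.0861). Ccr4, the other main chemokine receptor of skin T cells, was at 161, 156 and 157 CPM in iLN and 181, 189, 159 and 104 CPM in mLN. The 2 groups had nearly the same mean (log2 fold change 0.07, adjusted p = 0.931).

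**Figure D2:**
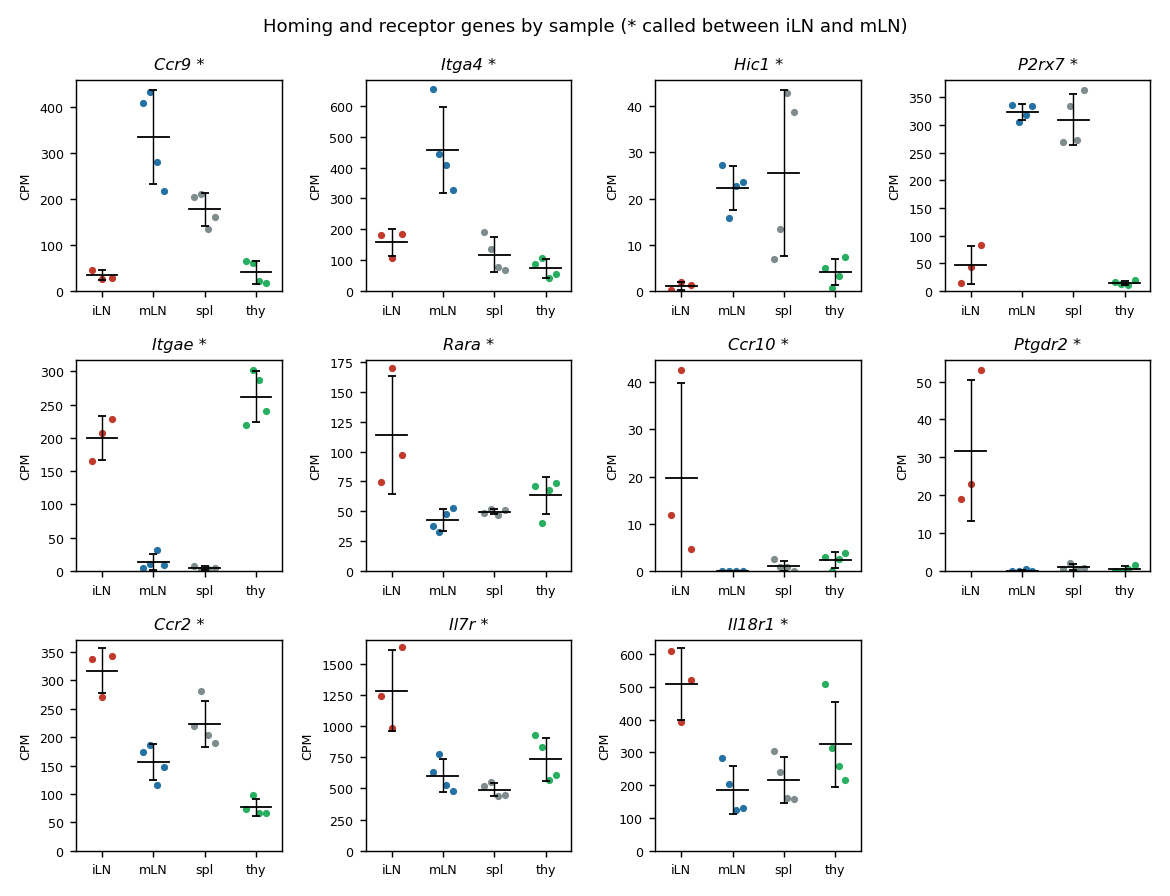
CPM (vertical, linear from 0) of 11 homing and receptor genes in each sample of iLN (red), mLN (blue), spleen (grey, spl) and thymus (green, thy), with bars for the mean ± SD and an asterisk for genes called between iLN and mLN. Ccr9, Itga4, Hic1 and P2rx7 were higher in mLN, and Itgae, Rara, Ccr10, Ptgdr2, Ccr2, Il7r and Il18r1 were higher in iLN.

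Most NKT17 genes had higher levels in iLN, although few passed the test. Like the other function lists, this list was chosen with earlier results of these data known. Its counts beside those of all genes are therefore a description and no test. Of 22 genes listed, 19 were tested, of which 17 had a log2 fold change above 0 (as had 50.0% of all genes tested), 13 had groups that did not overlap with iLN higher (4.46% of all genes tested) and 3 were called higher (5830411N06Rik, Sdc1 and Maf, beside 0.316% of all genes tested), while none was called lower. Their median log2 fold change was 2.43, and it lay between 2.08 and 2.63 under the alternatives tried. The number called fell to 1 without iLN replicate 4, mLN replicate 3 or mLN replicate 4 and with the 7 LN samples alone and to 0 in batch 2 alone, whereas DESeq2 called 8 and the fit with no filter on low counts 11. At an adjusted p under 0.05, 8 of them passed, all higher in iLN, beside 0.853% of all genes tested. 5830411N06Rik, which encodes a scavenger receptor of the type found on IL-17-producing T cells, was at 53.1, 60.7 and 121 CPM in iLN and 4.67, 1.31, 1.87 and 0.7705 CPM in mLN. The lowest iLN sample was more than 10-fold above the highest mLN sample (37.5-fold higher in iLN, log2 fold change 5.23, SE 0.62, adjusted p = 0.000116), and the call held without each LN sample in turn.

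Sdc1, which encodes syndecan-1 (CD138), a surface marker of NKT17 cells, was at 55.3, 102 and 137 CPM in iLN and 8.95, 16.4, 13.7 and 8.48 CPM in mLN. Spleen and thymus were lower still, at 1.35 ± 0.604 CPM and 1.76 ± 2.202 CPM (SD, n = 4 for both). The call (log2 fold change 2.78, SE 0.50, adjusted p = 0.0067) was lost without any LN sample but mLN replicate 2 (adjusted p up to 0.0435). Maf, which encodes the transcription factor c-Maf that NKT17 cells need, was at 259.8, 217 and 354 CPM in iLN and 164, 160.5, 127 and 121 CPM in mLN. Its iLN samples were all above 215 CPM and its mLN samples all below 165 CPM (2.003-fold higher in iLN, adjusted p = 0.00472), and the call was lost without iLN replicate 4 or any of mLN replicates 2, 3 and 4 (adjusted p up to 0.03).

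Il23r, a receptor chain for IL-23, was at 74.1, 92.4 and 119.9 CPM in iLN and 0.908, 9.87, 8.95 and 17.7 CPM in mLN. All iLN samples exceeded 70 CPM and no mLN sample exceeded 18 CPM (log2 fold change 3.38, adjusted p = 0.0393). Il1r1, the receptor for IL-1, was at 65.3, 69.3 and 161 CPM in iLN and 28.8, 13.9, 10.2 and 26.97 CPM in mLN. Here too the groups were apart but the call threshold was not met (log2 fold change 2.43, adjusted p = 0.0118). Tmem176a and Tmem176b, neighbouring genes of ion channels found in NKT17 cells, had log2 fold changes of 2.61 and 2.10 (adjusted p = 0.0138 and 0.0383). Ccr6, the receptor for CCL20, was at 39.6, 27.6 and 61.1 CPM in iLN and 0, 21.5, 1.04 and 0.578 CPM in mLN. Of the mLN samples, replicate 2 came close to the iLN range and the other 3 were near 1 CPM or lower, and Ccr6 did not pass (log2 fold change 4.37, adjusted p = 0.0966). The cytokine genes of the list were near 0 in both nodes, with at most 5 counts of Il17f, 3 of Il17a and 7 of Il22 in any LN sample, and none of the 3 passed the filter on low counts.

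**Figure D3:**
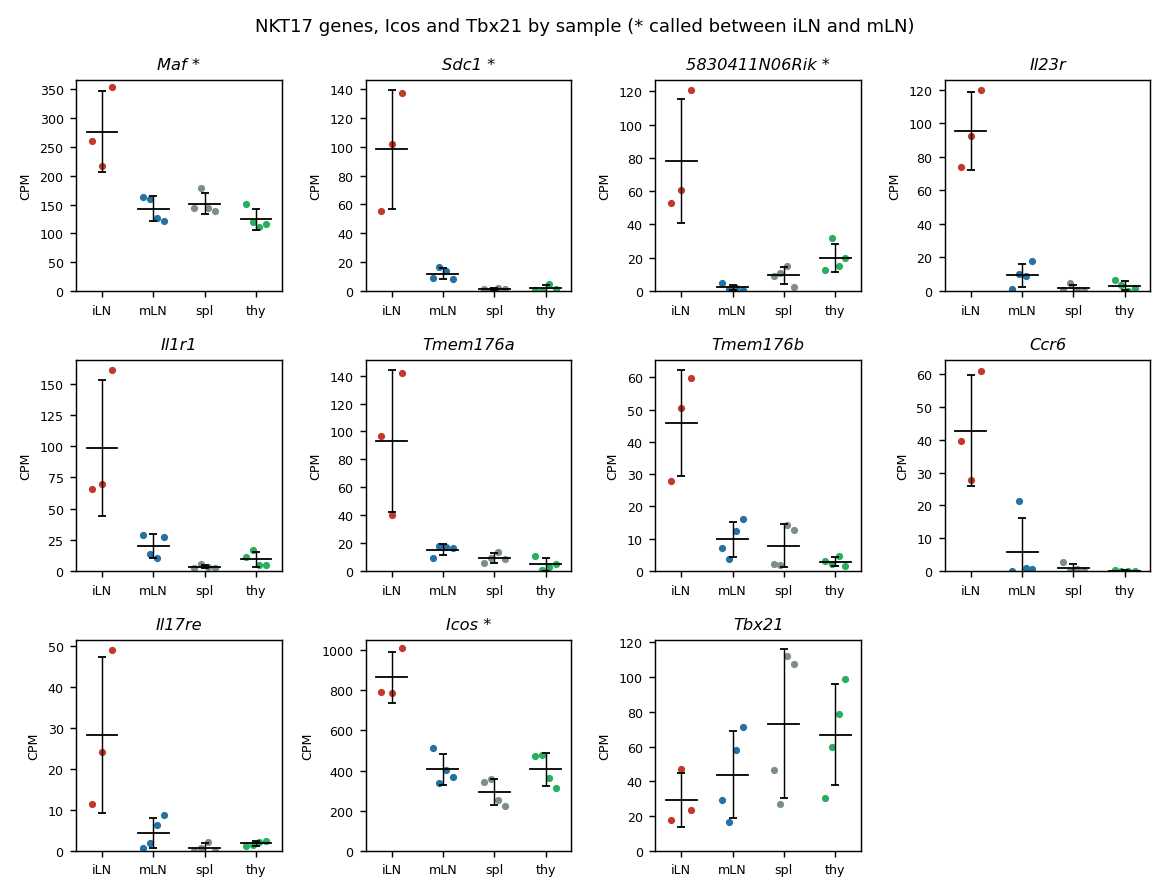
CPM (vertical, linear from 0) of 9 NKT17 genes, Icos and Tbx21 in each sample of iLN (red), mLN (blue), spleen (grey, spl) and thymus (green, thy), with bars for the mean ± SD and an asterisk for genes called between iLN and mLN. For the 9 NKT17 genes all iLN samples lie above all mLN samples, and iLN replicate 4, the rightmost red point, is the highest of the 3 for each.

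γδ T cells share many of these transcripts. Of the 8 genes listed for them 5 were tested and none was called by edgeR, beside 0.471% of all genes tested. An unadjusted p under 0.05 was reached by 3 of the 5, beside 13.8% of all genes tested. Trdc, the constant segment of the TCR δ-chain, was at 0.179 CPM in iLN replicate 2 and 0 in replicates 3 and 4, and at 7.78, 1.16, 0.208 and 2.70 CPM in mLN. Sox13, a transcription factor of γδ T cells, was at 24.9, 31.4 and 29.6 CPM in iLN and 0.778, 0.726, 4.16 and 6.74 CPM in mLN (log2 fold change 3.36, adjusted p = 0.0225). The summed level of the list was 652.9 to 1053 CPM in iLN and 469.8 to 1004 CPM in mLN, and its 3 γ-chain constant genes had log2 fold changes of 0.90, 0.59 and −0.19 (Tcrg-C1, Tcrg-C2 and Tcrg-C4).

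The factors of the other lineages did not pass the test. Tbx21 was at 17.9, 47.1 and 23.4 CPM in iLN and 29.4, 16.7, 57.8 and 71.1 CPM in mLN, Gata3 at 63.3, 154 and 117 CPM in iLN and 62.4, 78.9, 79.7 and 81.7 CPM in mLN and Zbtb16 at 185, 269 and 233 CPM in iLN and 199, 187, 228 and 179 CPM in mLN. All 3 overlapped between the nodes, with log2 fold changes of −0.68, 0.47 and 0.17 (adjusted p = 0.347, 0.38 and 0.779). Within batch 2 alone the signs of Gata3 and Zbtb16 turned, to −0.17 and −0.07. Of 22 NKT1 genes tested, 15 had a log2 fold change below 0, beside 6801 of the 13600 genes tested, and the median was −0.35. Klrk1 was the single call, in the opposite direction, beside 0.316% of all genes tested called higher in iLN. Klrk1, which encodes the activating NK receptor NKG2D, was at 115, 76.7 and 72.2 CPM in iLN and 25.4, 32.8, 28.5 and 36.4 CPM in mLN. All iLN samples were above 72 CPM and all mLN samples below 37 CPM (2.88-fold higher in iLN, log2 fold change 1.52, SE 0.20, adjusted p = 0.000328), and the call held without each LN sample. Of the NKT1 effectors, Ifng was at 34.2, 8.41, 8.74 and 8.86 CPM in mLN and 4.13, 2.44 and 4.11 CPM in iLN. Its groups did not overlap, with mLN replicate 1 far above the rest, but Ifng did not pass (log2 fold change −1.87, adjusted p = 0.0844). Nkg7 and Ccl5, which mark cytotoxic cells, had log2 fold changes of −1.02 and −1.07 (adjusted p = 0.0771 and 0.0591). Over the 23 NK cell receptor genes tested, Klrk1 was again the single call and the median was −0.42.

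Of 11 NKT2 genes tested, Icos was called higher in iLN and none lower (beside 0.316% and 0.154% of all genes tested), with a median of 0.07. Icos (ENSMUSG00000026009, chromosome 1, 60977927 to 61000320), a costimulatory receptor, was at 793, 787 and 1012 CPM in iLN and 514, 337, 405 and 366 CPM in mLN. The highest mLN sample, replicate 1, was well below the lowest iLN sample (2.22-fold higher in iLN, log2 fold change 1.15, SE 0.17, adjusted p = 0.00101). The annotated gene Gm37039 shares its strand and had means of 94.3 CPM in iLN and 55.8 CPM in mLN. Plac8 was the furthest to the other side, at 13.2, 29.9, 26.6 and 49.9 CPM in mLN and 5.02, 9.21 and 1.71 CPM in iLN (log2 fold change −2.55, adjusted p = 0.019), and was not called. Of 26 costimulatory and inhibitory receptors, Icos alone was called (beside 0.471% of all genes tested), and the median was −0.44. Cd28, the main costimulatory receptor of T cells, was at 957, 736, 618 and 561 CPM in mLN and 514, 394 and 487 CPM in iLN. It had groups that did not overlap but did not pass (log2 fold change −0.51, adjusted p = 0.111).

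Single receptor chains for IL-18 and IL-7 were higher in iLN. Of 29 cytokine receptor genes tested, Il18r1 and Il7r were called higher (beside 0.316% of all genes tested), none was called lower, 9 had groups that did not overlap, all with iLN higher (beside 4.46% of all genes tested), and the median log2 fold change was 0.40. This list too was chosen with earlier results of these data known, so the counts are a description. Il18r1, which encodes the ligand-binding chain of the IL-18 receptor, was at 611, 393 and 522 CPM in iLN and 282, 205, 126 and 129.5 CPM in mLN. Even iLN replicate 3 was above the highest mLN sample (3.13-fold higher in iLN, log2 fold change 1.65, SE 0.18, adjusted p = 6.21e-05). Il7r, which encodes the receptor for the survival cytokine IL-7, was at 1238, 986 and 1631 CPM in iLN and 633, 775, 526 and 479 CPM in mLN. All iLN samples were above all mLN samples (2.27-fold higher in iLN, log2 fold change 1.18, SE 0.17, adjusted p = 0.000608). Both calls held without each LN sample in turn. Il18rap, which encodes the accessory chain of the IL-18 receptor, was at 146, 107 and 112 CPM in iLN and 127, 89.8, 52.2 and 63.2 CPM in mLN. Its groups overlapped and it was not called (log2 fold change 0.66, adjusted p = 0.0919). Il2ra, the high-affinity chain of the IL-2 receptor, was at 192, 219 and 314 CPM in iLN and 109.6, 116, 86.1 and 101 CPM in mLN. It missed the call at 2.33-fold higher in iLN (adjusted p = 0.0134).

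**Figure D4:**
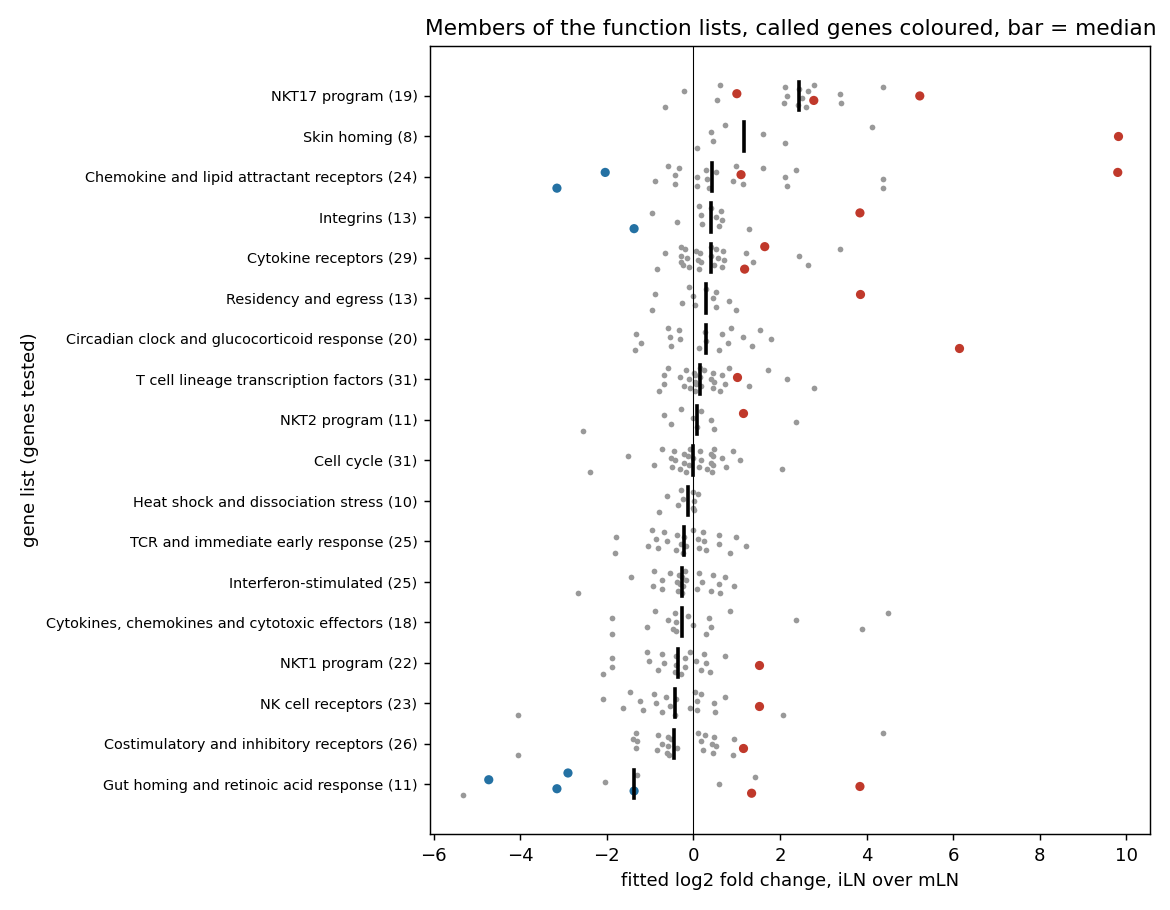
Fitted log2 fold change of iLN over mLN (horizontal) for each tested member of 18 function lists (rows, ordered by median, with the number of genes tested), as 1 point per gene with called genes in red (higher in iLN) or blue (higher in mLN) and a black bar at the median. NKT17 genes have the highest median at 2.43 and gut homing and retinoic acid genes the lowest at −1.37.

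Several other programs held no or few calls, where 0.471% of all genes tested were called. None of the 25 TCR and immediate early genes, 31 cell cycle genes, 25 interferon-stimulated genes, 10 heat shock genes and 18 cytokine and effector genes tested was called by edgeR, and their median log2 fold changes were −0.23, −0.01, −0.26, −0.13 and −0.26. In the same order 5, 3, 2, 0 and 6 of these genes had an unadjusted p under 0.05, beside 13.8% of all genes, and DESeq2 called 2, 0, 0, 0 and 3. At an adjusted p under 0.05, Zfp36 was higher in iLN (log2 fold change 0.85, adjusted p = 0.0439) and Nfkbid lower (−1.78, adjusted p = 0.0293) among the immediate early genes, and Csf1 higher (4.49, adjusted p = 0.0383) among the cytokines. Of 20 genes of the circadian clock and glucocorticoid response, Hlf, a clock output factor, was called. Hlf was at 57.8, 22.5 and 62.3 CPM in iLN and 0.1297, 0, 0.624 and 2.31 CPM in mLN. No mLN sample exceeded 2.31 CPM (log2 fold change 6.13, SE 0.94, adjusted p = 0.00127), but the call was lost without iLN replicate 2 or 4 (adjusted p up to 0.0133).

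Other genes with large changes towards iLN belonged to none of the lists. Vim, which encodes the intermediate filament protein vimentin, was at 70.9, 102 and 137 CPM in iLN and 12.3, 12.2, 12.5 and 7.13 CPM in mLN. The lowest iLN sample was over 5-fold above the highest mLN sample (8.98-fold higher in iLN, log2 fold change 3.17, SE 0.31, adjusted p = 2.71e-05). Lgals3, which encodes galectin-3, was at 13.1, 15.7 and 37.8 CPM in iLN and 0, 0, 0.832 and 1.73 CPM in mLN. It had no count in mLN replicates 1 and 2 (log2 fold change 5.43, SE 0.84, adjusted p = 0.00147), and the call was lost without mLN replicate 3 (adjusted p = 0.0105). Coro2b, an actin-binding coronin, was at 50.8, 51.5 and 74.2 CPM in iLN and 4.02, 4.79, 9.15 and 3.85 CPM in mLN. Its groups were more than 5-fold apart (log2 fold change 3.40, SE 0.43, adjusted p = 0.000185). Ahnak, a very large scaffold protein, had the smallest adjusted p of the genes higher in iLN (3.04-fold higher in iLN, log2 fold change 1.60, SE 0.14, adjusted p = 6.35e-06). Ahnak was at 2552, 2627 and 3118 CPM in iLN and 1045, 874, 877 and 926 CPM in mLN. Zfp462, a zinc finger protein gene, was at 29.2, 32.5 and 38.5 CPM in iLN and 0.1297, 0, 0 and 0.385 CPM in mLN. The iLN samples held 508 counts and the mLN samples 3, a ratio of 276 with an exact 95% interval of 93.8 to 1340 that covers counting error only (adjusted p = 0.000936), and the call was lost without iLN replicate 2. Gprin3 was at 70.3, 48.8 and 59.2 CPM in iLN and 5.32, 0.871, 1.66 and 3.85 CPM in mLN, again with wide separation (log2 fold change 4.44, SE 0.55, adjusted p = 0.000156).

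The S100a genes, which encode small calcium-binding proteins, were considered as a family after their values were seen. Of 13 annotated, 6 were tested, and all 6 had a log2 fold change above 0 (median 1.13), beside 50.0% of all genes tested. S100a4, S100a6 and S100a11 were called higher in iLN, beside 0.316% of all genes tested. S100a13, the smallest change, turned to −0.04 without mLN replicate 3. S100a4 was at 95.8, 72.1 and 195 CPM in iLN and 3.24, 8.12, 6.45 and 15.4 CPM in mLN. Its lowest iLN value was over 4-fold above its highest mLN value (13.9-fold higher in iLN, log2 fold change 3.80, SE 0.45, adjusted p = 0.000108). S100a6 had 57.1 ± 14.9 CPM (SD, n = 3) in iLN and 7.93 ± 3.75 CPM (SD, n = 4) in mLN (log2 fold change 2.88, adjusted p = 0.000156). S100a11 had 442 ± 117 CPM (SD, n = 3) and 187 ± 8.97 CPM (SD, n = 4) (log2 fold change 1.27, adjusted p = 0.00261, lost without iLN replicate 2 or 4 or mLN replicate 3). Further genes called higher in iLN were Igf1r (4.58-fold, adjusted p = 0.00382), the receptor for IGF-1, Runx2 (2.63), a Runx family factor, Capg (2.61), an actin-capping protein, Jaml (2.87), an adhesion molecule for epithelial cells, St6gal1 (1.61), a sialyltransferase, Gclc (1.77), an enzyme of glutathione synthesis, and Ikzf3 (0.96), the factor Aiolos, each but the first with its log2 fold change. Of these, the calls of Igf1r, Jaml and Ikzf3 were each lost without any of 4 of the 7 LN samples (adjusted p up to 0.045, 0.0473 and 0.039) and that of Gclc without any of 5 (adjusted p up to 0.0387).

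GIMAP genes, GTPases of lymphocyte survival clustered on chromosome 6, were also considered after their values were seen. All 8 tested had a log2 fold change below 0 (median −1.05), beside 6801 of the 13600 genes tested. Gimap3, Gimap4, Gimap6 and Gimap7 were called higher in mLN, beside 0.154% of all genes tested. The call of Gimap3 was lost without any of 5 of the 7 LN samples (adjusted p up to 0.0411). Gimap4 was at 802, 824, 839.5 and 920.2 CPM in mLN and 349, 423 and 322 CPM in iLN. Every mLN sample was above 800 CPM and every iLN sample at or below 423 CPM (2.36-fold higher in mLN, log2 fold change −1.24, SE 0.14, adjusted p = 6.21e-05). Gimap7 was at 81.04, 104, 102 and 109.6 CPM in mLN and 22.6, 17.6 and 29.9 CPM in iLN. It shares its strand and span with the annotated readthrough gene Gm28053 (4.56-fold higher in mLN, log2 fold change −2.19, SE 0.31, adjusted p = 0.000608). The uncalled members ran from −0.93 for Gimap5 to −0.26 for Gimap1 on the log2 scale.

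Among the other genes higher in mLN, Slamf6, which encodes a SLAM family receptor that iNKT cells need for their selection, was at 276, 295, 171 and 129.8 CPM in mLN and 36.1, 40.6 and 20.4 CPM in iLN. Within mLN the 2 samples of batch 2 were the highest, and all were above 129 CPM against at most 40.6 CPM in iLN (5.93-fold higher in mLN, log2 fold change −2.57, SE 0.28, adjusted p = 6.21e-05). Dtx4, a ubiquitin ligase of the Deltex family linked to Notch signalling, was at 82.2, 88.8, 104 and 82.3 CPM in mLN and 10.9, 9.75 and 16.4 CPM in iLN. The mLN samples were at least 5-fold above all iLN samples (7.598-fold higher in mLN, log2 fold change −2.93, SE 0.32, adjusted p = 6.21e-05). Tmem273, a transmembrane protein gene, had the largest change towards mLN among the 64 called genes, at 44.4, 61.5, 48.9 and 56.4 CPM in mLN and 0, 0 and 1.54 CPM in iLN. It had no count in iLN replicates 2 and 3 (log2 fold change −6.56, SE 0.80, adjusted p = 0.000156). Rnf5, a ubiquitin ligase of the endoplasmic reticulum, was at 46.3, 42.2, 44.9 and 23.9 CPM in mLN and 2.15, 8.94 and 10.1 CPM in iLN (log2 fold change −2.65, SE 0.44, adjusted p = 0.00327). Its call was lost without iLN replicate 2 or mLN replicate 3. Sh3gl3, which encodes an endophilin, was at 9.08, 11.2, 14.4 and 10.98 CPM in mLN and 0.718, 0.813 and 0.855 CPM in iLN (log2 fold change −3.88, SE 0.73, adjusted p = 0.00915). Its call was lost without each of the 7 LN samples in turn (adjusted p up to 0.0394).

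**Figure D5:**
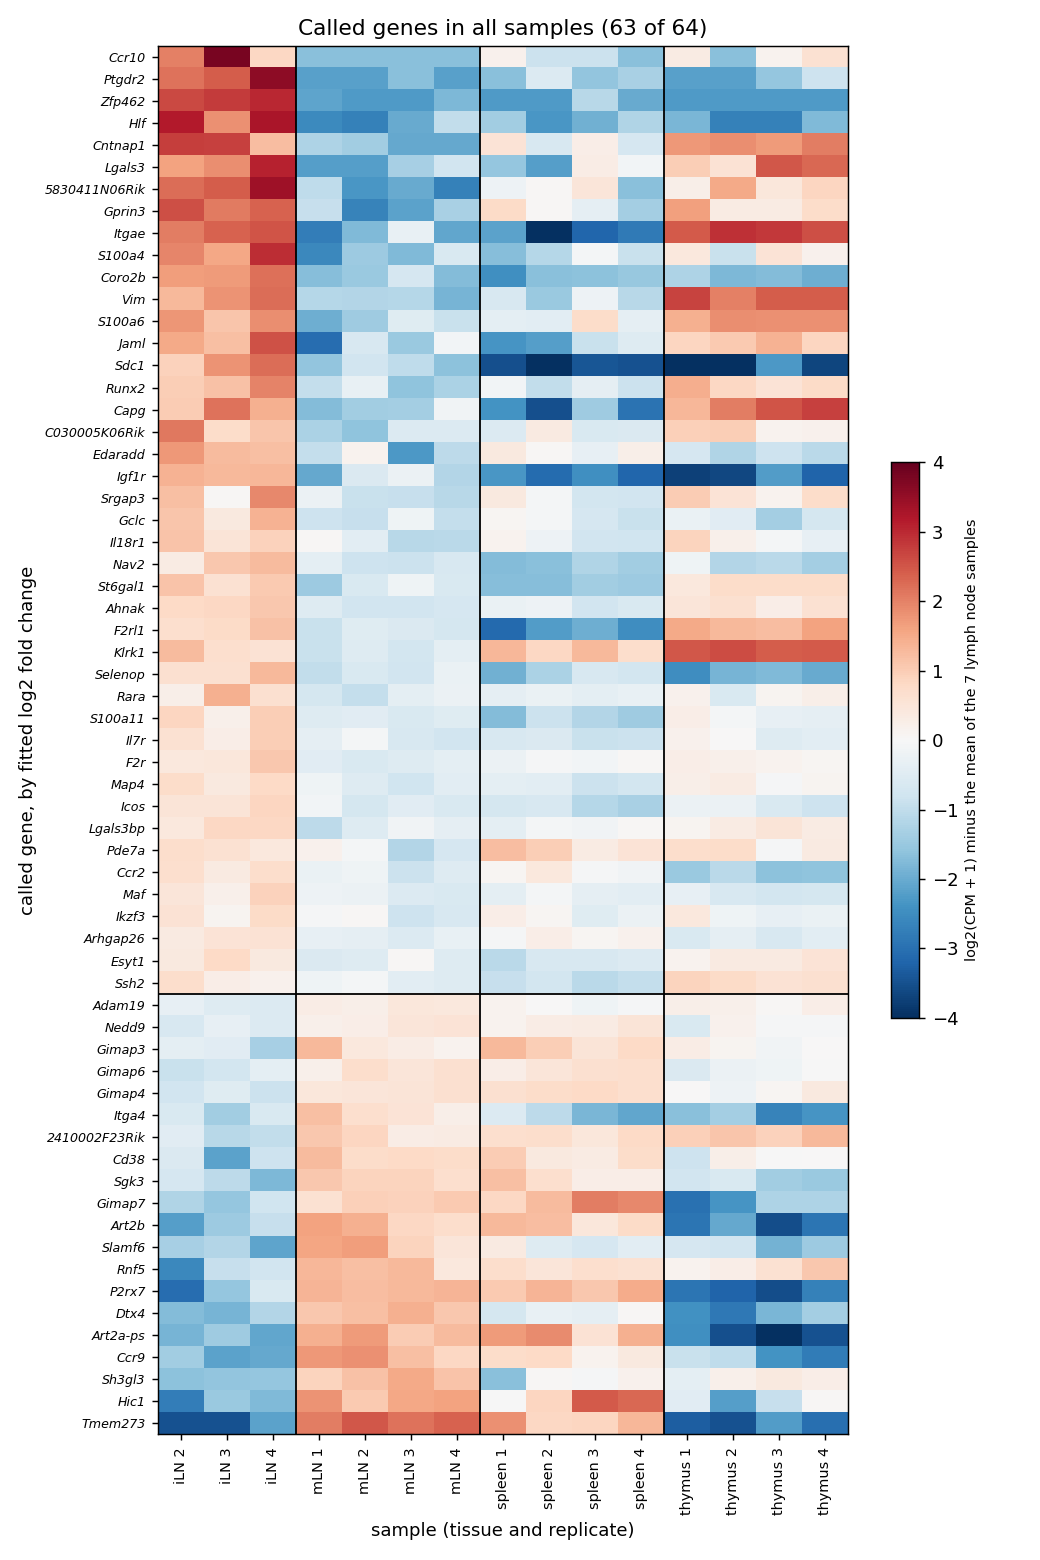
Called genes (63 of the 64 as rows, ordered by fitted log2 fold change, with the line between the 43 higher in iLN and the 20 drawn that were higher in mLN) in all 15 samples (columns). Colour gives log2(CPM + 1) minus the mean of the 7 LN samples, with differences past 4 drawn as 4, and rows such as Itgae, Capg and Vim are red in iLN and thymus, whereas Sdc1 and Igf1r are red in iLN only and P2rx7 and Art2b are blue in iLN and thymus.

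Retinoic acid receptors bind DNA at sites built on the half-site AGGTCA, and the promoters of the called genes were searched for these letters on both strands, in the 250 bases before the most 5′ start site of the RefSeq entry. An entry was found for 31 of the 43 genes higher in iLN and 16 of the 21 higher in mLN. The letters were present in 8 of the 31 (25.8%) and 1 of the 16 (6.25%), beside 13.8% of 27025 RefSeq promoters and 10.6% of the 9126 tested genes with an entry. The 8 were 5830411N06Rik, Capg, Edaradd, Igf1r, Jaml, Runx2, S100a11 and S100a4, and the 1 was Adam19. The 3 of the 8 with the largest fold changes are shown with the place of the half-site, 5′ to 3′ on the plus strand of GRCm38.p6 with the match in capitals (TGACCT where it lies on the other strand). They lie at chr7:140247051-140247300, chr3:90603520-90603769 and chr9:45078933-45079182.
5830411N06Rik: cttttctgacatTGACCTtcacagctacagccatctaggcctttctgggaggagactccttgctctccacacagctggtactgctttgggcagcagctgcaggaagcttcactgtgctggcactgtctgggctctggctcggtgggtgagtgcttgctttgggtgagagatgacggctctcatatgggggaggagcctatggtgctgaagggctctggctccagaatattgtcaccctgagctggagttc
S100a4: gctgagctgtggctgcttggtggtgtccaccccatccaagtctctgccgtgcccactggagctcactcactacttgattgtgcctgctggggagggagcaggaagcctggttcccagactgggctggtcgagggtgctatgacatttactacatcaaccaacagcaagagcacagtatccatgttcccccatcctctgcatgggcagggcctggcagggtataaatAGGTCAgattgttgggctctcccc
Jaml: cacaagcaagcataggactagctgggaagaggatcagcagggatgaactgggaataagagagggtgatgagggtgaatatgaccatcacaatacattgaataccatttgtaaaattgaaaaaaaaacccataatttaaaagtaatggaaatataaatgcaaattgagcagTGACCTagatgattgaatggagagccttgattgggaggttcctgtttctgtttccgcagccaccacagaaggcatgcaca
A match of this length is a description of the letters and not a binding site, and it does not tell which factor, if any, binds there.

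Markers of other cells were few among the calls. The 9 granulocyte and mast cell genes summed to at most 0.193 CPM and the 9 stromal genes to at most 0.385 CPM in any LN sample. Macrophage and monocyte genes summed to 2.33 to 13.3 CPM in iLN and 8.95 to 18.1 CPM in mLN. The 10 dendritic cell genes summed to 55.3 to 66.6 CPM in iLN and 244.5 to 457.6 CPM in mLN, and their single call was Ccr9 itself, which holds most of the sum in mLN. Flt3, which marks dendritic cells, was at 0 in all LN samples but mLN replicate 1. The 11 B cell genes summed to 191.6 to 231.9 CPM in iLN and 146 to 216 CPM in mLN, of which most was Ighm, and Cd79a had at most 9 counts in any LN sample. NK cell genes summed to 8.38 to 23.6 CPM and 3.24 to 13.9 CPM, CD8 T cell genes to 1.62 to 7.18 CPM and 2.12 to 8.30 CPM and red cell genes to 0.513 to 4.84 CPM and 0.624 to 2.31 CPM in iLN and mLN. Endothelial genes summed to 65.8 to 76.1 CPM and 67.9 to 101.9 CPM and adipocyte genes to 15.2 to 28.5 CPM and 13.5 to 27.9 CPM in the same order. The 6 regulatory T cell genes summed to 593.3 to 793.6 CPM in iLN and 457.7 to 648.3 CPM in mLN. Of these, Il2ra and Ikzf2 were higher in iLN at an adjusted p under 0.05, beside 0.853% of all genes tested (log2 fold change of Ikzf2 0.66, adjusted p = 0.0421). Foxp3 was at 10.6, 15.2 and 6.5 CPM in iLN and 0, 33.95, 4.16 and 4.24 CPM in mLN (adjusted p = 0.995). The part of other cells in the genes above was not tested beyond these values.

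V gene usage is given as a description, since the exact permutation of 3 against 4 samples, two-sided, cannot give a p below 0.0571. Trbv13-2 (Vβ8.2) made up 38.3%, 48.9% and 62.3% of the Trbv counts in iLN and 35.9%, 48.6%, 40.9% and 34.8% in mLN. The means were 49.8% ± 12 (SD, n = 3) and 40.1% ± 6.3 (SD, n = 4), a difference of 9.77 points (two-sided exact permutation test, p = 0.229, adjusted over 6 shares 0.343). Trbv29 (Vβ7) made up 18.6%, 8.99% and 2.86% in iLN and between 9.31% and 14.8% in mLN, a difference of −1.49 points (two-sided exact permutation test, p = 0.743, adjusted 0.891). In iLN the samples with more Trbv13-2 had less Trbv29, and the 95% Wilson intervals of replicates 2 and 4 did not overlap for either gene (for Trbv29 14.8% to 23.1% and 1.74% to 4.66%). Trbv1, Trbv13-3, Trbv13-1 and Trav11 with Trav11d differed by −3.77, −3.09, 0.37 and 3.26 points, of which those of Trbv1 and Trbv13-3 were larger than the SD of either group (1.98 and 3.46 points for Trbv1 and 2.21 and 1.52 points for Trbv13-3 in iLN and mLN). The Trbv genes held 256 to 525 counts and the Trav genes 826 to 1958 counts per LN sample, and intervals cover counting error only.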

How the data were processed

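Sorted iNKT cells were sequenced on an Illumina HiSeq with paired-end reads after NuGEN Ovation amplification. The authors trimmed reads with Cutadapt 1.7.1 and quantified genes with RSEM 1.2.31 and Bowtie2 2.2.9 against GRCm38.p6 (versions from the submitters' processing notes). Use of strand is not given in the sources used here. The expected counts that the authors deposited are RSEM's estimates of fragments per gene, with no normalization, and fragments that align to several genes are shared between them. The TPM values the authors deposited are these counts per effective length scaled to a common sum, and were used for 1 alternative to the V gene shares. The FPKM values the authors deposited were not used. The thresholds follow the study's methods, whereas edgeR took the place of DESeq2.

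Expected counts of 48795 genes were rounded and filtered with filterByExpr, which left 13600 genes, and normalized by TMM. Gene names matched for 48349 of them by Ensembl identifier. All 15 samples were fitted with edgeR 4.0.16 (limma 3.58.1, R 4.3.3) by robust quasi-likelihood with tissue and batch as factors, iLN was tested against mLN, and p-values were adjusted by Benjamini-Hochberg over all genes tested. SE is the absolute log2 fold change divided by the square root of F. In data simulated for iLN against mLN (13232 genes), calls were made for 51.6% of 95 genes with a log2 change of 2, for 5 of 100 with a log2 change of 1, and for 1 of 13037 unchanged genes.

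The members and gene lists were chosen with earlier results of these data known. Values were given in full for the 12 largest changes in each direction among called genes with at least 5 CPM in the higher tissue and a single direction in replicates 2 to 4, for called members of the function lists, and for Tbx21, Gata3, Zbtb16, Ccr9 and Itgae. Other members of lists were named to illustrate them. Of the called genes, 34 overlap another annotated gene. Replicates were not duplicates (chi-squared per degree of freedom 12.7 to 121). V gene shares are percentages of the expected counts of all Trbv or Trav genes, tested by two-sided exact permutation over 35 arrangements. Promoters were taken from RefSeq. Tables, exact tests and plots were made in Python 3.11.15 (scipy 1.17.1, pandas 2.3.3, matplotlib 3.10.9, numpy 2.4.6). The alternatives were DESeq2 1.42.0 (on all 48795 genes, without filterByExpr), RLE normalization, removal of rRNA genes, other filters, no batch covariate, a replicate block, fewer samples, each batch alone, thinned libraries, a looser threshold and leaving out each LN sample. Leaving out thymus replicate 2 was added after the data had been seen. Some genes that this rule names are not reported here. iLN replicate 1 was not analysed here.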

Additional observations from a re-analysis of the deposited data

Results flagged for a closer look

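In each group of 4 mLN samples, 1 sample was set against the other 3 for 42 quantities (36 genes taken by the rule for named genes, Ccr10 being at 0 throughout, and the 6 V gene shares). Of these, 4 stood apart by Dixon's test at the 95% level. Chance alone flags about 1 in 20 where values spread normally, which counts near 0 do not. Gata3 was lowest in mLN replicate 1 at 62.4 CPM. Vim was lowest in mLN replicate 4 at 7.13 CPM. Ptgdr2 was highest in mLN replicate 3 at 0.416 CPM, which is 2 counts where the other mLN samples had none. With the others at 0, any count would have been flagged. The share of Trbv13-1 was lowest in mLN replicate 2 at 3.14%.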

How the results depend on the processing

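The direction of all 64 called genes held under every alternative in which they could be tested. These genes were taken from the same samples and their groups did not overlap, so a turned sign was hardly possible. Their number moved more. Beside 64 genes (43 higher and 21 lower in iLN), DESeq2 called 303 (177 and 126), no filter on low counts 279 (182 and 97), no batch covariate 40 (25 and 15), the 7 LN samples alone 20 (14 and 6), batch 1 alone 23 (15 and 8), batch 2 alone, in which the lone iLN sample is assumed to vary like the other groups, 3 (0 and 3), and an adjusted p under 0.05 without a limit on fold 183 (116 and 67). All 64 were among the 303 and 63 among the 279. DESeq2 was given all 48795 genes, so that tool and filter changed together. Of the 64, 40 were called without the batch covariate, 17 in batch 1 alone and 16 with the 7 LN samples alone. RLE normalization and removal of rRNA genes gave 64, thinned libraries 66, at least 10 counts in every LN sample 76 and the fit without thymus replicate 2, added after the data had been seen, 63. With the replicate number as a block, all 15 samples gave 62 genes, of which 60 were among the 64. The 6 LN samples of replicates 2 to 4 gave 11 (8 and 3), of which 10 were among the 64. Pearson's r across genes between the deviations of same-numbered iLN and mLN samples was 0.079, 0.116 and 0.037 for replicates 2, 3 and 4. With the other mLN sample of the same batch it was 0.101, 0.056 and 0.042. Only iLN replicate 3 correlated best with its own number. These values cannot decide whether equal numbers mark the same mice. The main fit did not pair the samples, whereas the paper compared clonotype frequencies of its RNAseq samples with a paired t-test. Leaving out 1 LN sample gave 44 to 59 genes, 25 to 40 higher and 17 to 22 lower. The cause of these shifts was not tested, except that fits with fewer samples have fewer degrees of freedom.

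Of the uncalled genes named, Ccr4 turned to −0.00 without the batch covariate, −0.21 in batch 2 and between −0.07 (without mLN replicate 4) and 0.19 with 1 sample left out, and in batch 2 Gata3 turned to −0.17 and Zbtb16 to −0.07. S100a13 lay between −0.04 (without mLN replicate 3) and 0.35 with 1 sample left out. Of the V gene shares, the difference of Trbv13-1 turned to −0.20 points with TPM and −0.66 in batch 1, and lay between −2.03 and 1.80 with 1 sample left out. That of Trbv13-2 turned to −3.92 in batch 2, and that of Trbv29 to 8.28 in batch 2 and lay between −5.71 and 2.15 with 1 sample left out. With the replicate block over replicates 2 to 4 the share of Trbv13-2 differed by 8.39 points. With 4080550 to 7914302 counts per LN sample, genes near 1 CPM rest on fewer than 10 counts.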

Other observations

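Itgb5, which encodes the integrin chain β5, did not pass the filter on low counts. It had 9, 8 and 19 counts in the iLN samples and 0 in each of the 4 mLN samples. Flt3, a dendritic cell gene that was likewise not tested, had 29 counts in mLN replicate 1 and 0 in every other LN sample.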
